A study of Mus musculus with 2 samples.

Results

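Described here are 10 genes of interleukin 6 (IL-6) signalling, taken by gene name from the 55401 rows of the deposited table: the receptor chains Il6ra and Il6st, and the 8 genes of the suppressor of cytokine signalling (SOCS) family, which are Cish and Socs1 to Socs7. Each name matched a single row, and 9 of the 10 had a mean of 1 FPKM (fragments per kilobase of gene, scaled to the depth of the library) or more, as did 12526 rows in all. Cish passed this minimum on the mean of both libraries, since its level in the control alone was just under it, and Socs2 did not pass. RNA was measured by poly(A)-selected sequencing in myeloid-derived suppressor cells (MDSCs), which are immature, activated neutrophil-like and monocyte-like cells that restrain T cells in tumours. The study compared MDSCs of mice with and without Cre in myeloid cells. The Cre library came from C57BL/6 mice of genotype LysM-cre, Mettl3fl/fl, in which Cre is expressed from the lysozyme 2 locus of myeloid cells and both Mettl3 alleles carry loxP sites (1 library). The control came from Mettl3fl/fl mice of the same strain, with the same floxed alleles and no Cre (1 library). All mice were 8 weeks old and carried MC38 tumours, grown from a colon adenocarcinoma line of the mouse (a field of the LysM-cre sample reads MC39), and the MDSCs, isolated with magnetic beads, were then cultured with MC38 cells for 24 h. Whether cells of several animals were pooled, which surface marker the beads bound and which exons are floxed are not stated.

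With 1 library per genotype no difference has a replicate check, and no p-value is given. Differences are stated as the ratio of CPM (the count scaled to a common library total), the library labelled LysM-cre over the control, with an exact 95% interval that covers counting error only and compares these libraries, not the genotypes. Mettl3, whose product places N6-methyladenosine (m6A) on mRNA, held 1333 counts in the library labelled LysM-cre and 1413 in the control (CPM ratio 0.945, 95% interval 0.876 to 1.02), so the label was not borne out by the level of the whole gene, which may include exons outside a deleted stretch. The library is therefore called "the library labelled LysM-cre" throughout. The total was 59393864 counts in that library and 59506878 in the control. Genes of neutrophil-like and monocyte-like cells were abundant in both libraries. S100a9 had 5477 FPKM in the library labelled LysM-cre and 6078 in the control, and Csf1r had 480.7 and 455.6 FPKM in that order. The neutrophil marker gene Ly6g was less abundant, with 31.3 FPKM in the library labelled LysM-cre and 44.5 in the control. Markers of B cells, T cells and macrophages were present too, with Cd79a at 67.3 FPKM labelled LysM-cre and 74.9 in the control, Trac at 95.8 FPKM labelled LysM-cre and 91.0 in the control, and C1qa at 655 FPKM labelled LysM-cre and 623 in the control. In such bulk libraries fewer cells of a type and less RNA per cell cannot be told apart.

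IL-6 binds the receptor encoded by Il6ra, which has almost no signalling tail of its own, and the complex recruits gp130, the signal-transducing chain encoded by Il6st and shared by the receptors of several related cytokines. JAK kinases bound to gp130 then phosphorylate it and the transcription factor STAT3, which induces Socs3. The SOCS proteins close the loop: each has an SH2 domain that binds phosphotyrosine and a SOCS box that recruits a ubiquitin ligase, and SOCS1 and SOCS3 also block JAK kinases directly. The IL-6 and STAT3 axis is known for its part in the expansion and suppressive activity of MDSCs. In mouse T cells, Mettl3 is known to act on the transcripts of Socs1, Socs3 and Cish through m6A.

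The sequences below show where the letters of these known controls occur in the members. STAT dimers bind the palindrome TTCNNNGAA, which reads the same on both strands. RefSeq promoter windows of 300 bases on GRCm38.p6 (mm10) were held for 6 of the 10 members (Il6ra, Il6st, Cish, Socs1, Socs3 and Socs4), and 2 of the 6 contained the palindrome, against 8.30% of all 32851 windows of this length. The Cish window held 2 copies (0.457% of windows held 2 or more), beginning at positions 1 and 12 counted from the RefSeq start. The Socs3 window held 1 copy beginning 154 bases before the RefSeq start. These RefSeq starts lie inside the gene rows whose coordinates are given with the values, by 633 bases for Cish and 681 for Socs3, so both stretches shown are within the rows. They are shown with the palindromes in capitals, on the strand of the gene, for chr9:107296654-107296683 (Cish, plus strand) and chr11:117969502-117969531 (Socs3, minus strand).
Cish: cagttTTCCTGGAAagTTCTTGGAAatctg
Socs3: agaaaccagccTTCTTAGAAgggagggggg

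The Il6ra window held no copy of these letters, which says nothing of the factors that bind there. The 250 bases before its RefSeq start, which is also the start of its gene row (chr3:89913197-89913446, minus strand, GRCm38.p6) are shown because Il6ra was the member with the widest difference between the libraries. They are 65.2% G and C, and nothing is marked in capitals.
Il6ra: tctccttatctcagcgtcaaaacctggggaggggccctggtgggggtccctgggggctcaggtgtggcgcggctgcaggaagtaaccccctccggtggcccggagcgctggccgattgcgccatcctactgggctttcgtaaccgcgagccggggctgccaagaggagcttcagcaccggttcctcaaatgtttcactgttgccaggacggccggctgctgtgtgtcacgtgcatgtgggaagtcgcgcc

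The most frequent sequence context of m6A is GGACT, and m6A is most common near stop codons. In the GENCODE M21 transcript with the longest coding sequence, searched on the transcript strand only, GGACT occurred in all 10 members. Il6ra had 6 copies (1.79 per kilobase) and Il6st 10 (1.15 per kilobase), while Socs1 had 1 (0.344 per kilobase) and Socs4 had 2 (0.291 per kilobase), against a median of 1.02 per kilobase over 21877 protein-coding genes. The Il6ra value is for a transcript of 3343 bases, and its longest coding transcript, of 8639 bases, was not searched. Within 200 bases of the end of the stop codon, 4 of the 10 members had a copy, against 35.7% of protein-coding genes. The copy nearest the stop codon in each of these 4 is shown in capitals with 10 bases on either side, and a match is not a methylated site. That of Il6st begins 2 bases after the stop codon, and those of Cish, Socs2 and Socs3 begin 63, 59 and 75 bases before the last base of the stop codon.
Il6st: ccgcagtgaaGGACTggctcctgaa
Cish: tggccgacgtGGACTgcctacccct
Socs2: tacgatctggGGACTgcctttacca
Socs3: acggccacctGGACTcctatgagaa

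Il6ra had the lower level in the library labelled LysM-cre, while its partner Il6st was at nearly the same level in both. Il6ra (ENSMUSG00000027947, chromosome 3, 89864059 to 89913196 on the minus strand, mm10) encodes the chain that binds IL-6, both on the cell surface and as a shed soluble receptor. It stood at 28.6 FPKM on 16455 counts in the library labelled LysM-cre, against 45.5 FPKM on 26254 counts in the control. The CPM ratio was 0.628 (95% interval 0.616 to 0.640), which is 1.59-fold lower. Only 4.10% of the 12526 genes kept had a ratio this low or lower. A predicted gene, Gm42809, overlaps the start of Il6ra on the opposite strand and held 25 counts in the library labelled LysM-cre and 40 in the control (CPM ratio 0.626, 95% interval 0.364 to 1.06). The strand setting of the counts is not stated, so reads of the pair cannot be told apart.

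Il6st (ENSMUSG00000021756, chromosome 13, 112464070 to 112510086 on the plus strand) stood at 13.7 FPKM on 10104 counts in the library labelled LysM-cre and 14.3 FPKM on 10643 counts in the control. The CPM ratio was 0.951 (95% interval 0.926 to 0.978), so the interval lay below 1 although the difference was small. Within each library the Il6ra level was 2.09 times that of Il6st in the library labelled LysM-cre, against 3.17 times in the control. These factors depend on the gene length used. Per kilobase of the GENCODE transcript with the longest coding sequence they were 4.23 in the library labelled LysM-cre and 6.403 in the control, and per kilobase of the longest coding transcript 1.64 in the library labelled LysM-cre and 2.48 in the control. On these 3 scales the binding chain was the more abundant of the pair in both libraries, by a smaller factor in the one labelled LysM-cre.

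**Figure D1:**
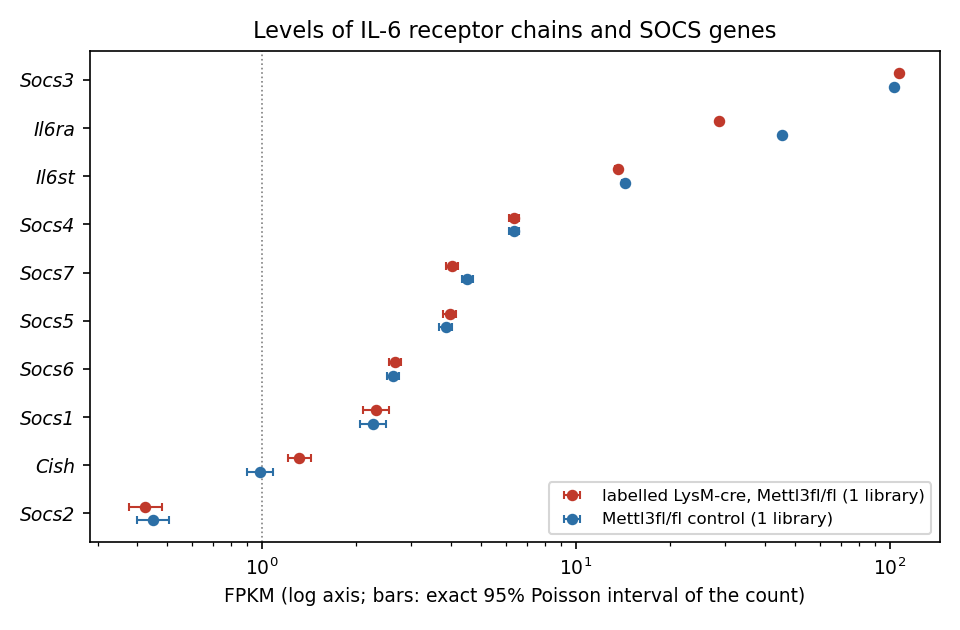
FPKM on a log axis for the 10 genes, 1 point per library, with the library labelled LysM-cre above the control for each gene and bars for the exact 95% Poisson interval of the count. The dotted line marks 1 FPKM. Socs3 lies near 100 FPKM in both libraries, and Il6ra shows the widest gap, with 28.6 FPKM labelled LysM-cre and 45.5 in the control.

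Socs3, the inhibitor that docks on gp130 itself and limits IL-6 and G-CSF signals, had the highest FPKM of the members in both libraries. It (ENSMUSG00000053113, chromosome 11, 117966079 to 117970047 on the minus strand) stood at 107 FPKM on 20687 counts in the library labelled LysM-cre and 103 FPKM on 19943 counts in the control. The CPM ratio was 1.04 (95% interval 1.02 to 1.06). The interval thus excluded 1 by a narrow margin, and a difference of this size is below any fold used here. Only 3.80% of the genes kept had a mean level as high as that of Socs3. Within each library, the Socs3 FPKM was 3.76 times that of Il6ra in the library labelled LysM-cre, against 2.27 times in the control. These factors depend on the gene length used. Per kilobase of the transcript with the longest coding sequence, Socs3 stood at 131 CPM and Il6ra at 132 in the control. In the library labelled LysM-cre they stood at 136 and 82.9 CPM on that scale. Per kilobase of the longest coding transcript, Il6ra stood at 32.1 CPM in the library labelled LysM-cre and 51.1 in the control. On this scale Socs3 was the higher of the pair in both libraries.

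Cish and Socs2 are feedback inhibitors of STAT5, which acts downstream of GM-CSF, growth hormone and other cytokines. Cish (ENSMUSG00000032578, chromosome 9, 107296026 to 107302784 on the plus strand) had the widest upward difference of the family, at 1.32 FPKM on 565 counts in the library labelled LysM-cre and 0.991 FPKM on 427 counts in the control. Its CPM ratio was 1.33 (95% interval 1.17 to 1.51), an interval above 1 that reaches just past 1.5-fold. Of the genes kept, 91.3% had a ratio this low or lower. Both rows that overlap Cish on the opposite strand held 0 counts. Socs2 was low in FPKM, at 0.426 FPKM on 274 counts in the library labelled LysM-cre and 0.451 FPKM on 291 counts in the control. Its count, FPKM and library total imply 10824 bases in the library labelled LysM-cre, which is not an exact length. Its GENCODE transcript with the longest coding sequence has 2222 bases. Per kilobase of that transcript, Socs2 stood at 2.08 CPM in the library labelled LysM-cre and 2.20 in the control. The Socs2 CPM ratio was 0.943 (95% interval 0.797 to 1.12). At this depth a difference of Socs2 was not detectable.

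Socs1 (chromosome 16, 10782240 to 10785536 on the minus strand), the strongest inhibitor of interferon signalling in the family, stood at 2.31 FPKM on 449 counts in the library labelled LysM-cre and 2.27 FPKM on 442 counts in the control. The CPM ratio was 1.02 (95% interval 0.891 to 1.16), and no difference was detectable. In both libraries it was far below its close relative Socs3, which stood 46.4 times higher in FPKM in the library labelled LysM-cre and 45.5 times higher in the control.

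The remaining members, Socs4 to Socs7, are the less studied members with long amino-terminal regions, of which Socs4 and Socs5 are known to act on the EGF receptor and Socs6 and Socs7 on insulin receptor and other tyrosine kinase signals. Socs4 had the same level in both libraries, with 6.35 FPKM in the library labelled LysM-cre and 6.34 in the control (CPM ratio 1.00, 95% interval 0.95 to 1.05). Socs5 had 3.98 FPKM in the library labelled LysM-cre and 3.86 in the control (CPM ratio 1.03, 0.962 to 1.10), and Socs6 had 2.66 FPKM in the library labelled LysM-cre and 2.62 in the control (1.02, 0.955 to 1.08). Those 3 intervals all included 1. The 3 genes lie on chromosomes 14, 17 and 18, and Socs7 lies on chromosome 11 with Socs3. Socs7 was the lowest of the SOCS genes kept by its ratio, at 4.04 FPKM on 1990 counts in the library labelled LysM-cre and 4.52 FPKM on 2230 counts in the control, with a CPM ratio of 0.894 (0.841 to 0.95).

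**Figure D2:**
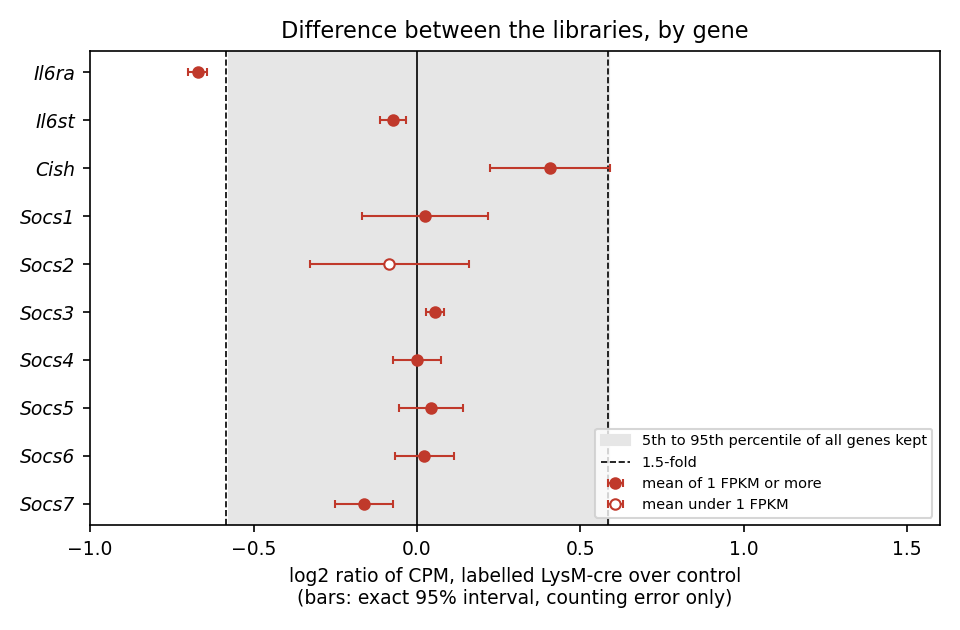
Log2 ratio of CPM, the library labelled LysM-cre over the control, for each gene, with bars for the exact 95% interval of counting error. The grey band spans the 5th to 95th percentile of genes kept with counts in both libraries, dashed lines mark 1.5-fold and the open point is Socs2, below the minimum. Il6ra alone lies past a dashed line, at −0.67.

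Counts over the family are set beside those over all genes. At 1.5-fold or more, 1 of the 9 members kept was lower (Il6ra) and 0 were higher, against 10.1% of all genes kept in either direction, 4.91% lower and 5.21% higher. Among the 4622 genes that averaged at least 10 FPKM, where Il6ra lies, these shares were 5.84% in either direction and 2.88% lower, and among the 10250 rows with a protein-coding transcript 5.38% and 2.43%. A single member is too few to set against such shares, and at 2-fold there was 0, against 4.27%. At a lower threshold of 0.32 on the log2 scale there were 2, Il6ra and Cish, against 22% of all genes kept. The count interval excluded 1 for 5 of the 9 members, above it for Cish and Socs3 (30.1% of all genes kept) and below it for Il6ra, Il6st and Socs7 (29.7%). In either direction the share of all genes kept was 59.8%, so an interval that excludes 1 is common between these libraries. The median log2 CPM ratio of the 9 members was 0.02, against 0.00 over all genes kept. Of the 7 SOCS genes kept, 6 were above a ratio of 1 and 1 below, against 50.2% of genes above 1. Their ratios ran from 0.894 to 1.33. Of those 6, the intervals of Socs1, Socs4, Socs5 and Socs6 included 1, so the count is not read as a shift of the family. Socs2, which was not kept, had a ratio of 0.943.

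**Figure D3:**
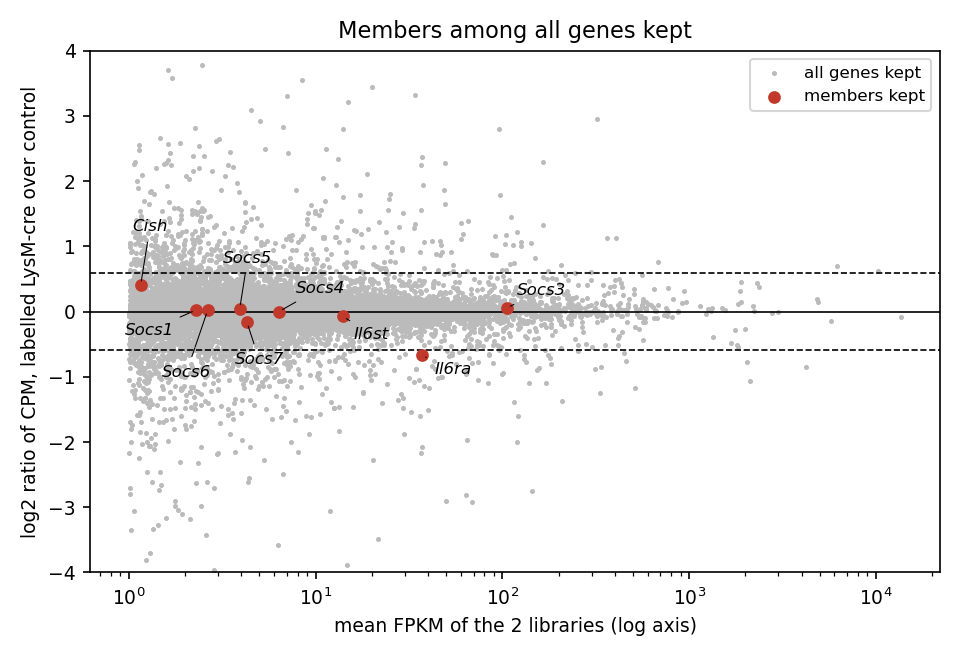
Log2 ratio of CPM, the library labelled LysM-cre over the control, against the mean FPKM of both libraries on a log axis, for all genes kept (grey) and the 9 members kept (red). Dashed lines mark 1.5-fold, and 36 genes outside the plotted range or with 0 counts in a library are not drawn. Il6ra lies below the lower line at a mean of 37.0 FPKM, and the other 8 lie between the lines.

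The make-up of the SOCS family within each library was also similar. The 8 SOCS genes summed to 128 FPKM in the library labelled LysM-cre and 124 FPKM in the control. Socs3 took 83.6% of this sum in the library labelled LysM-cre and 83.1% in the control, and the other 7 genes together stood at 21.1 FPKM in each. Socs4 came next with 4.94% in the library labelled LysM-cre and 5.10% in the control, followed by Socs7 with 3.15% in the library labelled LysM-cre and 3.64% in the control. Cish took 1.03% in the library labelled LysM-cre and 0.797% in the control, but 1.98% in the library labelled LysM-cre and 1.55% in the control per kilobase of the transcript with the longest coding sequence.

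The order of the 10 levels in FPKM was the same in both libraries: Socs3, Il6ra, Il6st, Socs4, Socs7, Socs5, Socs6, Socs1, Cish and Socs2. The counting intervals of neighbours in this order overlapped only for Socs7 and Socs5 in the library labelled LysM-cre. The order depends on the gene length, because FPKM divides by one. Taken with the library total, count and FPKM imply 9700 bases for Il6ra in the library labelled LysM-cre and 9703 in the control. These are not exact lengths, since FPKM may have been scaled to another total. The same calculation gave 7213 bases for Cish in the library labelled LysM-cre, more than its row spans. The GENCODE transcript of Il6ra with the longest coding sequence has 3343 bases and its longest coding transcript 8639. Per kilobase of the 3343-base transcript, Il6ra stood at 82.9 CPM in the library labelled LysM-cre and 132 in the control. Socs3 stood at 136 CPM in the library labelled LysM-cre and 131 in the control, so that both were level there on this scale. Per kilobase of the 8639-base transcript, Il6ra stood at 32.1 CPM in the library labelled LysM-cre and 51.1 in the control, below Socs3 in both. On either scale Socs7 came after Socs5 and Socs6, and Cish stood above Socs1 in the library labelled LysM-cre. Ratios between the libraries do not depend on this length.

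The other genes of the pathway, in 9 lists of 100 symbols, gave 83 genes at a mean of 1 FPKM or more, of which 3 were at least 1.5-fold lower and 0 at least 1.5-fold higher (3.61%, against 10.1% of all genes kept and 5.38% of those rows with a protein-coding transcript). Lower alone, 2.43% of the rows with a protein-coding transcript passed, and the share of the lists is not read as low beside these values. The median log2 CPM ratio of the 83 was −0.02, against 0.00 over all genes kept. Of the ligands that signal through gp130, 4 of 10 were kept, 1 above and 3 below a ratio of 1, and none passed 1.5-fold. Osm, the oncostatin M gene, was the most abundant with 47.7 FPKM in the library labelled LysM-cre and 58.3 in the control (CPM ratio 0.817, 95% interval 0.792 to 0.843). Il6 itself was below the minimum, with 48 counts in the library labelled LysM-cre and 22 in the control (CPM ratio 2.19, 95% interval 1.29 to 3.80), or 0.293 FPKM in the library labelled LysM-cre and 0.132 in the control. It was singled out after its value was seen.

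Of 5 other receptor chains that pair with gp130, 3 were kept, and all 3 were above a ratio of 1 without passing 1.5-fold. The most abundant was Il27ra, the IL-27 receptor, with 15.5 FPKM in the library labelled LysM-cre and 14.7 in the control. Of 5 genes for shedding of the IL-6 receptor, 3 were kept and all were below 1, with Rhbdf2 past 1.5-fold. Rhbdf2, which encodes iRhom2, the partner that brings the sheddase ADAM17 to the cell surface in myeloid cells, had 12.4 FPKM in the library labelled LysM-cre and 21.2 in the control (CPM ratio 0.583, 95% interval 0.561 to 0.605). The sheddase gene Adam10 had 23.2 FPKM in the library labelled LysM-cre and 25.9 in the control. Adam17 had 15.9 FPKM in the library labelled LysM-cre and 16.2 in the control. Both the receptor gene and Rhbdf2 were thus lower in the library labelled LysM-cre, while neither enzyme gene passed 1.5-fold.

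All 10 listed JAK and STAT genes were kept, 3 above and 7 below a ratio of 1, and none passed 1.5-fold. Jak1, the main kinase on gp130, had 84.0 FPKM in the library labelled LysM-cre and 85.9 in the control (CPM ratio 0.977, 0.964 to 0.990), and Stat3 had 28.0 FPKM in the library labelled LysM-cre and 29.3 in the control (0.956, 0.937 to 0.976). The most abundant of the list was Stat6, with 86.8 FPKM in the library labelled LysM-cre and 85.8 in the control. The ubiquitin ligase partners of the SOCS box (6 of 6 kept, 2 above and 4 below 1, none past 1.5-fold) included Elob, which encodes elongin B, with 31.0 FPKM in the library labelled LysM-cre and 21.3 in the control (1.45, 1.37 to 1.54). Other JAK-STAT inhibitors (12 of 12 kept, 4 above and 8 below) also had none past 1.5-fold, and the most abundant was the phosphatase gene Ptpn6, with 217 FPKM in the library labelled LysM-cre and 232 in the control.

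Receptors known to be restrained by SOCS proteins were 20 of 25 kept, 12 above and 8 below a ratio of 1, with only Insr past 1.5-fold. The insulin receptor gene Insr had 2.62 FPKM in the library labelled LysM-cre and 4.92 in the control (CPM ratio 0.534, 95% interval 0.508 to 0.561). The G-CSF receptor gene Csf3r, with 441 FPKM in the library labelled LysM-cre and 492 in the control, was the most abundant (0.896, 0.889 to 0.903).

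Target genes of STAT3 and STAT5 were counted in the same way. Of 20 STAT3 targets all were kept, 11 above and 9 below a ratio of 1, and 0 passed 1.5-fold. The most abundant, S100a9, had a ratio of 0.901 (95% interval 0.895 to 0.906). Of 10 STAT5 targets 8 were kept, 4 above and 4 below, and only the cyclin gene Ccnd3 passed, with 10.7 FPKM in the library labelled LysM-cre and 25.1 in the control (0.425, 0.413 to 0.438). A pseudogene row described by the name of this gene also held counts, so the Ccnd3 value is uncertain. The kinase gene Pim1 was the most abundant of that list, with 76.6 FPKM in the library labelled LysM-cre and 80.1 in the control. Insr, Ccnd3 and Elob each overlap a row with counts on the opposite strand, whose reads cannot be told apart from theirs. The same holds for Il27ra, Adam17, Jak1, Stat3, Stat6, Ptpn6 and Pim1.

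**Figure D4:**
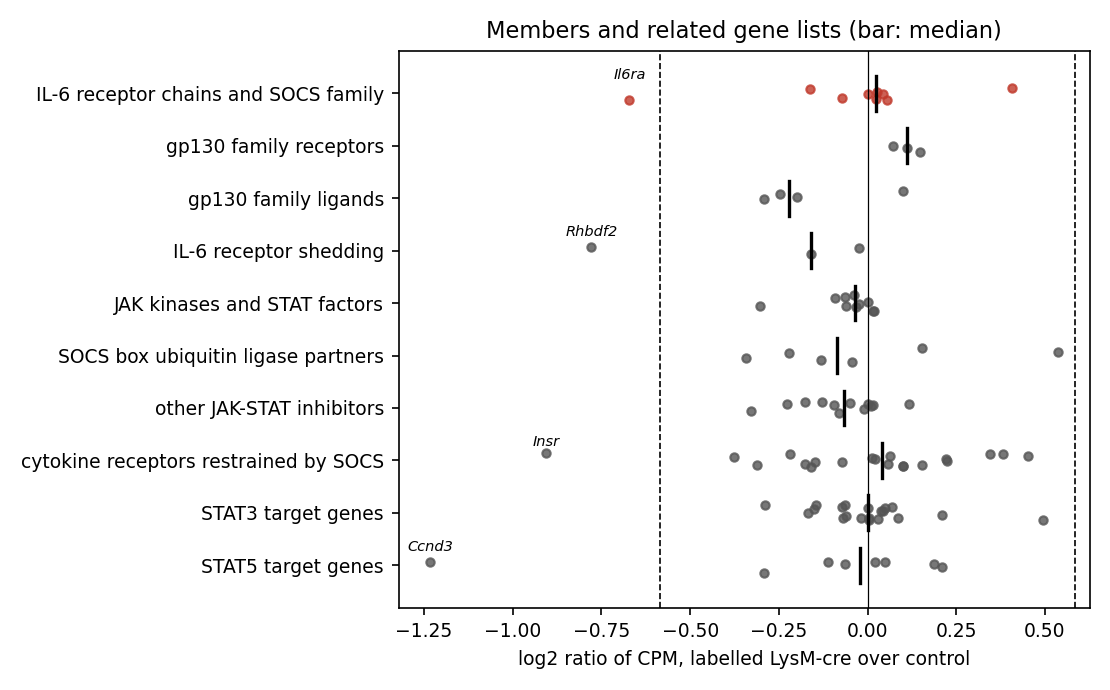
Log2 ratio of CPM, the library labelled LysM-cre over the control, for the members kept (red) and the genes kept of the 9 related lists (grey), 1 point per gene, with a bar at each median and dashed lines at 1.5-fold. Genes past 1.5-fold are named: Il6ra, Rhbdf2, Insr and Ccnd3, all lower.

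Il6ra is known to be expressed by neutrophils, monocytes, macrophages and T cells, and markers of these types differed between the libraries in both directions. Of all genes kept, 50.2% were above a ratio of 1, while 5.21% were at least 1.5-fold higher and 4.91% at least 1.5-fold lower. Of 12 neutrophil markers, 10 were below a ratio of 1 and 2 above, and their levels summed to 11362 FPKM in the library labelled LysM-cre and 12948 in the control (ratio of sums 0.878). Of 8 monocyte markers, 6 were above 1 and 2 below, with sums of 1393 FPKM in the library labelled LysM-cre and 1241 in the control. All 11 macrophage markers were above 1, of which only Marco passed 1.5-fold (CPM ratio 2.93), with sums of 3215 FPKM in the library labelled LysM-cre and 2855 in the control. Of 11 T and NK cell markers, 9 were kept, 5 above and 4 below, of which only Gzma passed 1.5-fold (CPM ratio 1.61), with sums of 327 FPKM in the library labelled LysM-cre and 310.3 in the control. None of these markers held 0 counts in both libraries, and their part in the Il6ra difference was not tested.

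Markers of other cell types are given for the same reason. All 8 eosinophil markers were above a ratio of 1 (895 FPKM summed in the library labelled LysM-cre and 672 in the control), and 4 of the 8 passed 1.5-fold, with CPM ratios of 5.55 for Epx, 2.85 for Ear6, 2.53 for Prg2 and 1.73 for Il5ra. The median log2 CPM ratio of the 8 was 0.63, against 0.00 over all genes kept. Epx, counted here, reached the minimum only through the library labelled LysM-cre, with 1.91 FPKM there and 0.343 in the control. Of 9 B and plasma cell markers 1 was above 1 and 8 below (784 FPKM in the library labelled LysM-cre and 501 in the control), and Jchain, the only one past 1.5-fold, had 555 FPKM labelled LysM-cre and 255 in the control. Of 9 dendritic cell markers 7 were kept, 3 above and 4 below (372 FPKM summed in the library labelled LysM-cre and 330 in the control). Most of this sum was H2-Ab1, with 265 FPKM labelled LysM-cre and 228 in the control, so the sum says little of the other markers. Of 8 erythroid and platelet markers 6 were kept, 5 above and 1 below, with Hba-a2 past 1.5-fold higher and Pf4 past it lower (1379 FPKM in the library labelled LysM-cre and 985 in the control). Pf4 reached the minimum only through the control, with 0.838 FPKM labelled LysM-cre and 1.34 in the control. Of 7 epithelial markers that tumour cells could carry, 2 were kept, with Krt18 past 1.5-fold higher, and Krt19, Krt20 and Cdx2 held 0 counts in both libraries (4.07 FPKM summed in the library labelled LysM-cre and 3.85 in the control). Krt18 reached the minimum only through the library labelled LysM-cre, with 1.43 FPKM there and 0.837 in the control. Of 7 fibroblast and endothelial markers 1 was kept (19.8 FPKM summed in the library labelled LysM-cre and 18.6 in the control). It was Pecam1, which made up most of the sum, with 17.3 FPKM labelled LysM-cre and 16.2 in the control. The others were below the minimum, so the sum says little of them. The part of these types in the values of the members was not tested.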

How the data were processed

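Poly(A) RNA, per the labels' protocols, was made into dUTP-marked libraries and sequenced from both ends. The submitters' processing notes name build mm10 and the tools HISAT2 2.0.4, cutadapt 1.9, DESeq2, edgeR and StringTie 1.3.4d. Their roles, and the strand and multi-mapping settings, are not stated. The deposited counts are whole numbers per gene row, and the authors' deposited FPKM is scaled for depth and length, with 0.0001 at a count of 0 (read as 0). The 8 value columns of 4 other libraries were not used.

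Counts were scaled to the library totals (CPM), and ratios were given exact Clopper-Pearson 95% intervals, FPKM levels exact Poisson intervals. Reads are not independent molecules, so both cover counting error only. Genes that averaged at least 1 FPKM were kept. A difference was counted at 1.5-fold or more. Nothing was tested, since each genotype had 1 library. The calculation was run on simulated counts with planted 2-fold changes, which checks the arithmetic only and not the spread between animals.

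Named genes were all 10 members, Mettl3, and of each pathway list the most abundant gene and those past 1.5-fold, with Jak1 and Stat3. With 2 libraries no likeness of patterns can be measured. Il6, Adam17, Gm42809, Lepr and the markers named singly were chosen after their values were seen. Members and lists were chosen with earlier results of these data known, and 2 genes and the list of targets of 1 of them are not reported here. Coordinates are those of the table, and 8 of 10 members had the same ones in GENCODE M21. Sequences are RefSeq promoters (GRCm38.p6) and GENCODE M21 transcripts. Alternatives were other pseudocounts, scalings (TMM by edgeR 4.0.16 in R 4.3.3), totals, minimums, thresholds and lengths. Calculations used scipy 1.17.1, pandas 2.3.3 and numpy 2.4.6 in Python 3.11.15, and figures matplotlib 3.10.9.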

Additional observations from a re-analysis of the deposited data

How the results depend on the processing

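With a threshold of 0.32 on the log2 scale the number of members past it was 2 (Il6ra and Cish), against 22% of all genes kept, and with 2-fold it was 0, against 4.27%. It was 1, as reported, under the other 11 alternatives run (pseudocounts, TMM, median-ratio and TPM scaling, totals without immunoglobulin and T cell receptor rows or without the 20 highest rows, overlapping rows summed, and other minimums). The share of all genes kept past 1.5-fold, 10.1% as reported, was 6.47% with FPKM + 1 and 2.71% with a pseudocount of 5 FPKM, so the unchanged 1 does not stand beside an unchanged background, and 9.59% to 10.1% under the other 7 scalings, totals and pseudocounts. For the other minimums no such share was calculated, so the counts of members there have no background beside them. The Il6ra ratio was 0.665 with a pseudocount of 5 FPKM and otherwise ran from 0.620 to 0.636. The Cish ratio was 1.16 with FPKM + 1 and 1.05 with a pseudocount of 5 FPKM, which understate low genes by construction. Socs4 lay on the other side of 1 under 3 of 9 alternatives, within its interval. No called member changed direction. The share of Socs3 in the SOCS family was 67.6% in the library labelled LysM-cre and 66.7% in the control by CPM, which is not per length, and 81.1% in the library labelled LysM-cre and 80.8% in the control per kilobase of the transcript with the longest coding sequence. That of Cish was 1.85% in the library labelled LysM-cre and 1.43% in the control by CPM. The values per kilobase of transcript, also for Il6ra over Il6st, come from an alternative chosen after seeing the data. No paired analysis was possible because each genotype had 1 library, and for the same reason no replicate could be left out. Depth limits Socs2, Cish and Socs1, the members with the fewest counts.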

Other observations

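Lepr, the leptin receptor gene, whose product is related to gp130 and is restrained by SOCS3, held 243 counts in the library labelled LysM-cre and 22 in the control (CPM ratio 11.1, 95% interval 7.14 to 17.99). It was below the minimum of 1 FPKM in both libraries, with 0.513 FPKM in the library labelled LysM-cre and 0.0464 in the control, and was singled out after its value was seen.

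Among the colony-stimulating factor receptors that signal beside IL-6 in myeloid cells, Csf2ra, the GM-CSF receptor chain, had 102 FPKM in the library labelled LysM-cre and 78.5 in the control (CPM ratio 1.304, 95% interval 1.28 to 1.33). Among interferon receptor chains, Ifngr1 had 73.8 FPKM in the library labelled LysM-cre and 95.7 in the control (0.771, 0.754 to 0.788), while Ifnar1 had 23.3 FPKM in the library labelled LysM-cre and 18.3 in the control (1.27, 1.23 to 1.31). These 3 receptor genes were also chosen after their values were seen, and none passed 1.5-fold.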
